A study of Mus musculus with 18 samples.

Results

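Multipotent progenitors of the MPP1 label were compared with haematopoietic stem cells (HSC) in the bone marrow of mice with a mutated Dnmt1, across all genes and with the genes of the cell cycle in view. The members were the 2 MPP1 mutant and the 3 HSC mutant libraries, which are 5 of the 18 libraries of the series. The columns were chosen by the population and genotype in their names, and no measured value entered the choice. All groups were BALB/c mice and lineage-negative marrow sorted into lysis buffer, with libraries made by CEL-Seq2, which primes at the poly(A) tail and tags each captured molecule with a unique molecular identifier (UMI). The groups were MPP1 mutant (2 libraries), HSC mutant (3 libraries), MPP1 control (2 wild-type libraries) and HSC control (3 wild-type libraries). The genotype field writes the mutants as dnmt1-/-, whereas the series text speaks of a hypomorphic missense allele, so the protein is changed and not removed by that account. No age, number of cells per library or gate for HSC and MPP1 is given in the sources used here.

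Haematopoietic stem cells sit at the top of blood formation and divide rarely. MPP1 is the multipotent progenitor closest to them, shares most of their surface proteins and in general usage is separated from them by the surface protein CD34. Dnmt1 copies DNA methylation onto the new strand behind the replication fork, so its task is tied to S phase, and genes of DNA replication and mitosis are transcribed in waves as a cell passes through the cycle.

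Each column name carries an ID number. MPP1 mutant 1 shares its number with HSC mutant 3 (mutant pair 1), and MPP1 mutant 2 with HSC mutant 2 (mutant pair 2), while the number of HSC mutant 1 has no MPP1 library. Likewise MPP1 control 1 and HSC control 2 form control pair 1, and MPP1 control 2 and HSC control 3 form control pair 2. The ID number was kept as a block in a fit of all 18 libraries, which also include libraries of the progenitor population MPP4. HSC mutant 1 shares its number with MPP4 mutant 1. Through that library it also entered the population difference, which therefore did not rest on the pairs alone. The labels do not say that an ID number is an animal, and a p-value here covers the variation among libraries, part of which may be technical. MPP1 mutant libraries held 393504 and 481891 counts, against 577629 to 1211250 in HSC mutant libraries. Levels are given in CPM, counts scaled to a common library size, in replicate order. One count was worth 2.72 and 2.12 CPM in MPP1 mutants, against 0.91, 0.87 and 1.67 CPM in HSC mutants.

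Single libraries stood apart. The labels assign each library to a sequencing batch, and HSC mutant 1 was the only one of the 5 in batch A, the others being in batch C. Its 32 erythroid genes set it apart, with summed levels of 1771 and 1614 CPM in MPP1 mutants, against 18447, 2261 and 2118 CPM in HSC mutants. Neutrophil markers summed to 364 and 478 CPM in MPP1 mutants, against 2262, 179 and 162 CPM in HSC mutants. Transcript models lying in satellite repeats took 7.35% and 9.15% of the counts in the MPP1 mutants, against 1%, 0.279% and 1.19% in the HSC mutants. Mitochondrial tRNAs summed to 421 and 362 CPM in MPP1 mutants, against 537, 27.9 and 35.1 CPM in HSC mutants. Among the controls, the erythroid genes of MPP1 control 2 summed to 33552 CPM and its neutrophil markers to 9107 CPM, and HSC control 1 had 35856 CPM of B cell markers.

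**Figure D1:**
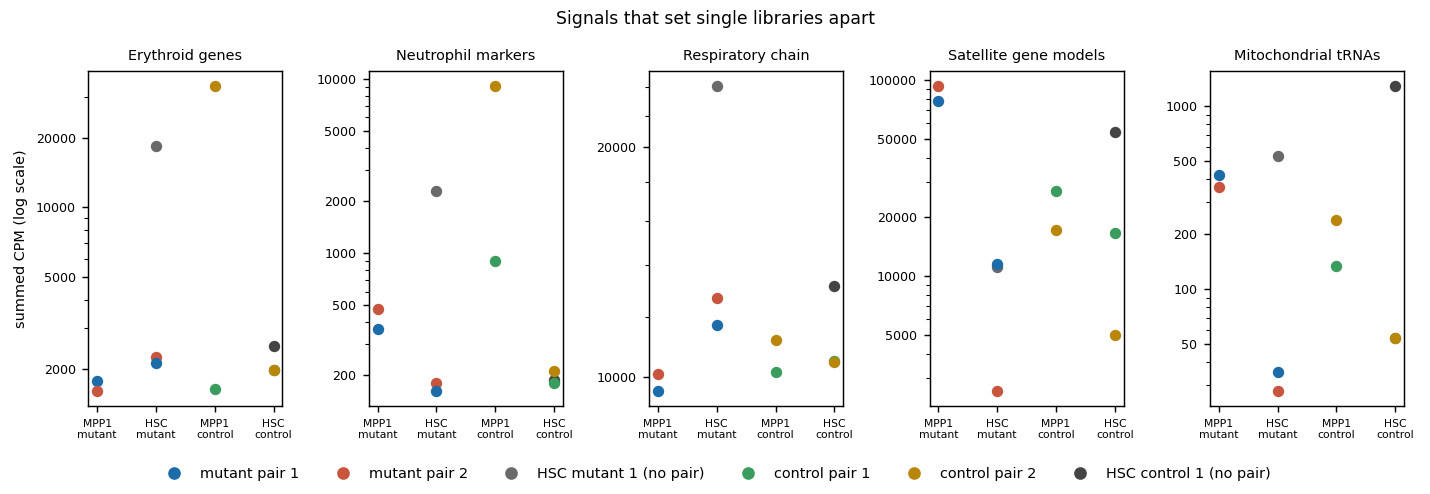
Summed CPM (log scale) of erythroid genes, neutrophil markers, respiratory chain genes, satellite gene models and mitochondrial tRNAs in each of 10 libraries, 1 point per library, coloured by pair. HSC mutant 1 lies far above the other HSC mutants in the first 3 panels, and both MPP1 mutants lie above the other 8 libraries for satellite models.

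Dnmt1 itself had 228 and 294 CPM in MPP1 mutants, against 120, 312.5 and 299 CPM in HSC mutants. The groups overlapped, with a log2 difference of -0.07 ± 0.23 (SE; adjusted p = 0.974 by edgeR's quasi-likelihood test, the source of every adjusted p here). A missense allele need not change transcript level, so Dnmt1 does not check the genotype labels. Its partner Uhrf1, which brings it to newly replicated DNA, gave -0.45, and the chromatin remodeller Hells gave 0.76 (adjusted p = 0.5).

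The population labels were set against their markers. Cd34, the surface protein that separates MPP1 from HSC, had 264 and 224 CPM in MPP1 mutants, against 205, 115 and 169 CPM in HSC mutants. Every MPP1 mutant library was above every HSC mutant library, with a log2 difference of 0.77 ± 0.28 that did not pass (adjusted p = 0.509). Ly6a, which encodes Sca-1, had 92.4 and 71.9 CPM in MPP1 mutants, against 66.4, 36.6 and 43.4 CPM in HSC mutants, again without overlap (log2 difference 1.13, adjusted p = 0.254). The receptor tyrosine kinase Kit had a log2 difference of 0.03. Flt3, a receptor low in both populations, had 57.1 and 16.9 CPM in MPP1 mutants, against 41.9, 13.1 and 20.04 CPM in HSC mutants, and the groups overlapped. Cd48, which marks later progenitors, had 19.0 and 23.3 CPM in MPP1 mutants, against 85.5, 29.6 and 6.68 CPM in HSC mutants.

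Stem cell regulators were present in both populations. Mecom, a transcription factor needed by stem cells, had 505 and 503 CPM in MPP1 mutants, against 94.6, 358 and 479 CPM in HSC mutants, and its log2 difference of 0.35 did not pass. Hlf gave 0.24, Mllt3 0.35, Procr 0.30 and Slamf1 0.02, all short of the threshold. Over the 39 tested genes of the stem cell list, 19 were estimated higher and 20 lower in MPP1 mutants, none passed the test and the median log2 difference was 0.00. In the control libraries the same list had a median of -0.30, with 29 of 39 estimates lower in MPP1.

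Across the genome few genes separated the populations in the mutants. MPP1 mutants differed from HSC mutants at 5 of 10613 tested genes, or 0.0471% (Benjamini-Hochberg adjusted p under 0.05). The genes Hk3, Prtn3, mt-Ti and mt-Nd5 were higher in MPP1 (0.0377% of all tested genes) and Gata1 was lower (0.00942%). At an unadjusted p under 0.05 there were 785 genes (7.40%), 374 higher (3.52%) and 411 lower (3.87%). In the 18-library fits without the ID number as a block no gene passed, while the batch C libraries alone, which leave out HSC mutant 1, gave 20 of 9380 (0.213%; 0.171% higher and 0.0426% lower), the 5 genes above among them. Leaving out MPP1 mutant 2 left 0 genes and leaving out MPP1 mutant 1 left 1, Cgnl1, whereas leaving out HSC mutant 1 gave 21 (0.209%).

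Of the genes that rose in MPP1, Hk3 and Prtn3 are known from myeloid cells. Hk3 (chromosome 13, 55005985 to 55021385, GRCm38), a hexokinase of myeloid cells, had 46.2 and 63.5 CPM in MPP1 mutants, against 31.8, 12.2 and 5.01 CPM in HSC mutants. The groups did not overlap, and within mutant pairs 1 and 2 MPP1 was higher by 2.73 and 2.18 on the log2 CPM scale. The fitted log2 difference was 2.68 ± 0.39 (SE, adjusted p = 0.000787), and in the controls it was 1.10 (adjusted p = 0.46). The call was lost without MPP1 mutant 1 (adjusted p = 0.0585) or MPP1 mutant 2 (0.145), within a range of 1.39e-06 to 0.807 over all alternatives.

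Prtn3 (chromosome 10, 79874476 to 79883174), a serine protease of the primary granules of neutrophil precursors, had 253 and 343 CPM in MPP1 mutants, against 375, 65.3 and 68.5 CPM in HSC mutants. The MPP1 mutants lay above HSC mutants 2 and 3 and below HSC mutant 1, the library with high neutrophil markers. The log2 difference was 1.88 ± 0.30 (adjusted p = 0.0188) and stood beside 2.20 in the controls (adjusted p = 0.00188). It did not pass when HSC mutant 2, HSC mutant 3 or either MPP1 mutant was left out (adjusted p = 0.152 to 0.52), and its adjusted p ran from 8.91e-16 to 0.861 over all alternatives. In bulk libraries such as these, a larger share of cells that contain a transcript and more of it per cell cannot be told apart.

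Of 33 tested genes of the myeloid progenitor list, 28 were estimated higher in MPP1 mutants, 1 passed (Prtn3) and 8 had an unadjusted p under 0.05, or 24.2% beside 3.52% of all genes. The median log2 difference was 0.73 in mutants and 1.81 in controls, against -0.01 and 0.00 over all genes. Ms4a3, a gene of granulocyte and monocyte progenitors, had 54.3 and 12.7 CPM in MPP1 mutants, against 47.3, 1.74 and 1.67 CPM in HSC mutants. It did not pass (log2 difference 3.12, adjusted p = 0.107), nor did Irf8, which directs monocyte and dendritic cell development, at 32.6 and 50.8 CPM in MPP1 mutants, against 5.46, 6.96 and 6.68 CPM in HSC mutants (2.26 ± 0.53, adjusted p = 0.206). Irf8 was lower in all 3 HSC mutants than in both MPP1 mutants, whereas the Ms4a3 groups overlapped through HSC mutant 1. Both passed with the batch C libraries alone, at 2.64 for Irf8 and 3.84 for Ms4a3, as did the flippase gene Atp8b4 at 3.84.

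Other myeloid genes had wide gaps within the pairs and did not pass. Mpo, myeloperoxidase, had 388 and 717 CPM in MPP1 mutants, against 621, 0.87 and 3.34 CPM in HSC mutants. Within the pairs there were 482 counts in MPP1 and 3 in HSC, a ratio of 334 (95% counting interval 114 to 1625), but the fitted difference over all libraries was 4.91 ± 2.12 on the log2 scale (adjusted p = 0.687). Elane, neutrophil elastase, had 196 and 275 CPM in MPP1 mutants, against 589, 0 and 3.34 CPM in HSC mutants (adjusted p = 0.81). Ly6c2, a surface gene of monocytes and their progenitors, had 97.8 and 184 CPM in MPP1 mutants, against 83.7, 0 and 0 CPM in HSC mutants. Tyrobp, the signalling adaptor of myeloid receptors, had 19.0 CPM in each MPP1 mutant, against 35.5, 1.74 and 5.01 CPM in HSC mutants (log2 difference 1.33, adjusted p = 0.669). For all 4 the MPP1 mutants were above HSC mutants 2 and 3, and HSC mutant 1 was far above the other HSC mutants. Mpo passed with DESeq2 (adjusted p = 0.0166), but its adjusted p ran from 4.81e-81 to 1 over all alternatives.

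Gata1 (chromosome X, 7959260 to 7978071), the master transcription factor of red cells and megakaryocytes, was the gene that fell. It had 5.43 and 2.12 CPM in MPP1 mutants, against 238, 74.0 and 28.4 CPM in HSC mutants. These values rest on 3 counts in MPP1 and 364 in HSC, a ratio of HSC over MPP1 of 35.8 (95% counting interval 12.2 to 175) that was 16.4 (5.44 to 80.6) within the pairs. The fitted log2 difference was -3.80 ± 0.75 (adjusted p = 0.0457), and it was -0.97 in controls (adjusted p = 0.963). The call was lost when HSC mutant 2, HSC mutant 3 or either MPP1 mutant was left out (adjusted p = 0.0894 to 0.785), and with DESeq2. Over all alternatives its adjusted p ran from 5.9e-08 to 1. The erythroid sum moved with it, at 1771 and 1614 CPM in MPP1 mutants, against 18447, 2261 and 2118 CPM in HSC mutants, and its part in the result was not tested.

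**Figure D2:**
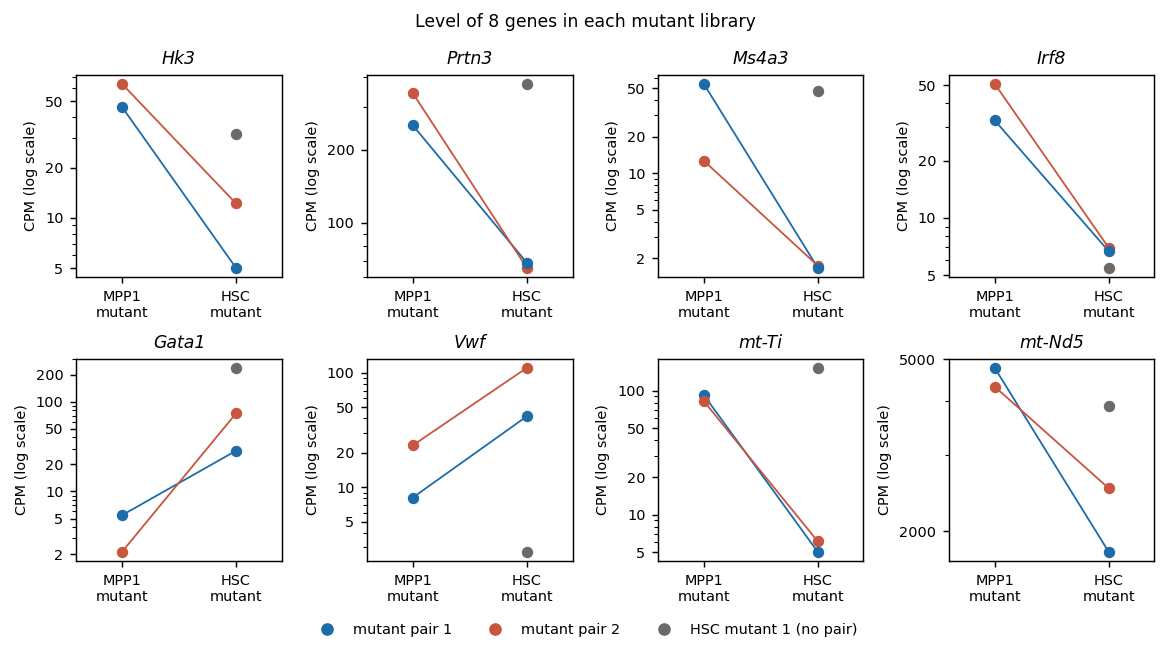
CPM (log scale) of 8 genes in each mutant library, MPP1 left of HSC, 1 point per library; lines join the libraries of a pair, and HSC mutant 1 has no MPP1 partner. Both lines fall towards HSC for Hk3, Prtn3, Ms4a3, Irf8, mt-Ti and mt-Nd5 and climb towards HSC for Gata1 and Vwf, while HSC mutant 1 lies far from the other HSC mutants for Prtn3, Ms4a3, Vwf and mt-Ti.

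Most other erythroid and megakaryocyte genes were estimated with the same sign as Gata1. Of 32 tested erythroid genes, 29 were estimated lower in MPP1 mutants, 1 passed (Gata1) and 9 had an unadjusted p under 0.05 (28.1%, beside 3.87% of all genes). Their median log2 difference was -1.15, but -0.41 without HSC mutant 1 and -0.40 in batch C alone, beside -0.49 in controls. Within the pairs, 13 of the 32 were lower in MPP1 in both, and 5 were higher in both. Over all 10613 tested genes these counts were 2963 and 2903. The medians on the log2 CPM scale were -0.02 in mutant pair 1 and -0.70 in mutant pair 2. Car1, carbonic anhydrase of early red cells, had 0 and 4.23 CPM in MPP1 mutants, against 1580, 77.5 and 46.8 CPM in HSC mutants (adjusted p = 0.398). The erythroid transcription factor Klf1 had 0 and 4.23 CPM in MPP1 mutants, against 231, 17.4 and 15.0 CPM in HSC mutants. Both were lower in both MPP1 libraries than in any HSC library, and neither passed. The transporter gene Mfsd2b (8.15 and 6.35 CPM in MPP1 mutants, against 122, 60.1 and 25.1 CPM in HSC mutants) and the repressor Gfi1b (27.2 and 31.7 CPM in MPP1 mutants, against 124, 68.8 and 68.5 CPM in HSC mutants) were separated in the same way, with log2 differences of -2.57 and -1.28 that did not pass.

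In the megakaryocyte list 14 of 17 tested genes were estimated lower in MPP1 mutants, 6 of them at an unadjusted p under 0.05 (35.3%, beside 3.87% of all genes), and none passed. The median was -0.63 in mutants, -0.76 in batch C alone and -0.30 in controls. Vwf, the clotting factor that marks platelet-biased stem cells, had 8.15 and 23.3 CPM in MPP1 mutants, against 2.73, 110.5 and 41.8 CPM in HSC mutants. HSC mutant 1 was the lowest of the 5, and the log2 difference of -2.20 ± 0.50 did not pass (adjusted p = 0.105), though it did in batch C alone at -2.24. Itga2b, the platelet integrin CD41, had 16.3 and 63.5 CPM in MPP1 mutants, against 27.3, 153 and 63.5 CPM in HSC mutants (-1.36). The platelet chemokine Pf4 had 62.5 and 6.35 CPM in MPP1 mutants, against 11.8, 286 and 160 CPM in HSC mutants (-2.79). In both genes the MPP1 library of each pair was below its HSC library, while HSC mutant 1 lay within the MPP1 range.

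The remaining genes of smallest p did not pass. Cgnl1, a tight junction protein, had 32.6 and 42.3 CPM in MPP1 mutants, against 9.10, 0 and 3.34 CPM in HSC mutants (log2 difference 4.63, adjusted p = 0.0667). Cd53, a leukocyte tetraspanin, had 62.5 and 38.1 CPM in MPP1 mutants, against 36.4, 13.1 and 16.7 CPM in HSC mutants (1.73 ± 0.37, adjusted p = 0.0667). Both had every MPP1 library above every HSC library, and Cd53 passed in the controls at 1.62 (adjusted p = 0.0429). Atp1b2, a sodium pump subunit, had no count in either MPP1 mutant, against 186, 30.5 and 5.01 CPM (243 counts) in HSC mutants, with an adjusted p of 0.0832. It had no count in either MPP1 control and 31.6, 11.1 and 21.8 CPM in HSC controls, where it passed (adjusted p = 0.00643). Lgals9, a secreted galectin, had 234 and 224 CPM in MPP1 mutants, against 1149, 571 and 421 CPM in HSC mutants (-1.02 ± 0.23, adjusted p = 0.105).

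Cell cycle genes did not pass in the mutants. The 11 cell cycle lists together name 292 genes, of which 289 are in the tables and 284 were tested. In MPP1 mutants 107 were estimated higher and 177 lower than in HSC mutants, with a median log2 difference of -0.11. No gene passed with edgeR over the 18 libraries or with DESeq2. At an unadjusted p under 0.05, 1 was higher (0.4%, beside 3.52% of all genes) and 16 were lower (5.6%, beside 3.87%) with edgeR. Summed over the lists, cell cycle transcripts took 21656 and 24978 CPM in MPP1 mutants, against 27350, 26458 and 23776 CPM in HSC mutants, so the groups overlapped.

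The control libraries had the other sign. There 250 of the 284 genes were estimated higher in MPP1 and 34 lower, 9 passed, all higher (of 25 called among all tested genes, 0.236%, 22 of them higher, 0.207%), and the median was 0.50. The 9 became 0 with no block, 5 in batch C alone and 1 to 3 when any 1 of the HSC and MPP1 control libraries was left out. The sums were 25604 and 28028 CPM in MPP1 controls, against 17271, 19649 and 23116 CPM in HSC controls, with no overlap. The difference between the genotypes, tested as an interaction, had a median of -0.62 over the 284 genes, against -0.02 over all genes. It was negative for 247 of them, and 75 were negative at an unadjusted p under 0.05 (26.4%, beside 2.96% of all genes). No single gene passed: the interaction called 0 of 10613 genes after adjustment (0%), with 505 (4.76%) at an unadjusted p under 0.05. Over the 14 alternatives run for the interaction its median ranged from -0.74 to -0.49, and no cell cycle gene passed in any of them.

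Within pairs the 2 genotypes also stood on opposite sides of 0. The median log2 CPM difference of the 284 genes, MPP1 minus HSC, was -0.13 and -0.14 in mutant pairs 1 and 2, against 0.43 and 0.42 in control pairs 1 and 2. In the mutants 110 genes were lower in MPP1 in both pairs and 45 higher in both, beside 2963 and 2903 of all 10613 tested genes. In the controls 189 were higher in both, beside 2871 of all tested genes. The 2 MPP1 mutants also had the largest satellite shares of the 10 HSC and MPP1 libraries, and MPP1 control 2 held erythroid and neutrophil transcripts. All cell cycle lists together had an interaction median of -0.618 without satellite models and mitochondrial transcripts, and -0.648, -0.678 and -0.595 without MPP1 mutant 1, MPP1 mutant 2 and MPP1 control 2 in turn. Dropping the satellite models leaves the same 284 genes in the same libraries. Each fit without an MPP1 mutant keeps the other MPP1 mutant. These fits therefore cannot separate the satellite share from the contrast, and its part was not tested.

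**Figure D3:**
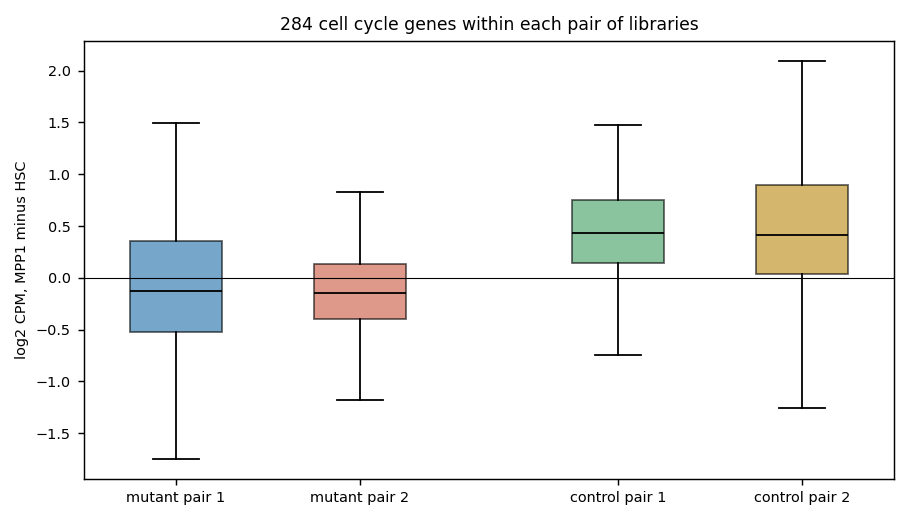
Log2 CPM difference, MPP1 minus HSC, of 284 cell cycle genes within each pair of libraries that share an ID number; boxes span the quartiles, the line is the median and whiskers reach 1.5 box lengths, with points beyond not drawn. The medians are -0.13 and -0.14 in the mutant pairs, against 0.43 and 0.42 in the control pairs.

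The mitotic kinases and cyclins, which drive entry into and passage through mitosis, had the largest interaction median of the 11 cell cycle lists. Their 26 genes summed to 728 and 853 CPM in MPP1 mutants, against 1099, 1099 and 907 CPM in HSC mutants, and to 1074 and 1106 CPM in MPP1 controls, against 459, 598 and 761 CPM in HSC controls. Neither pair of groups overlapped, and the order of the populations was opposite. In the mutants 21 of 26 were estimated lower in MPP1, 4 at an unadjusted p under 0.05 (15.4%, beside 3.87% of all genes), with a median of -0.29. In the controls 24 were estimated higher, 14 at an unadjusted p under 0.05 (beside 3.62% of all genes) and 1 past adjustment, with a median of 0.88, and the interaction median was -1.30.

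**Figure D4:**
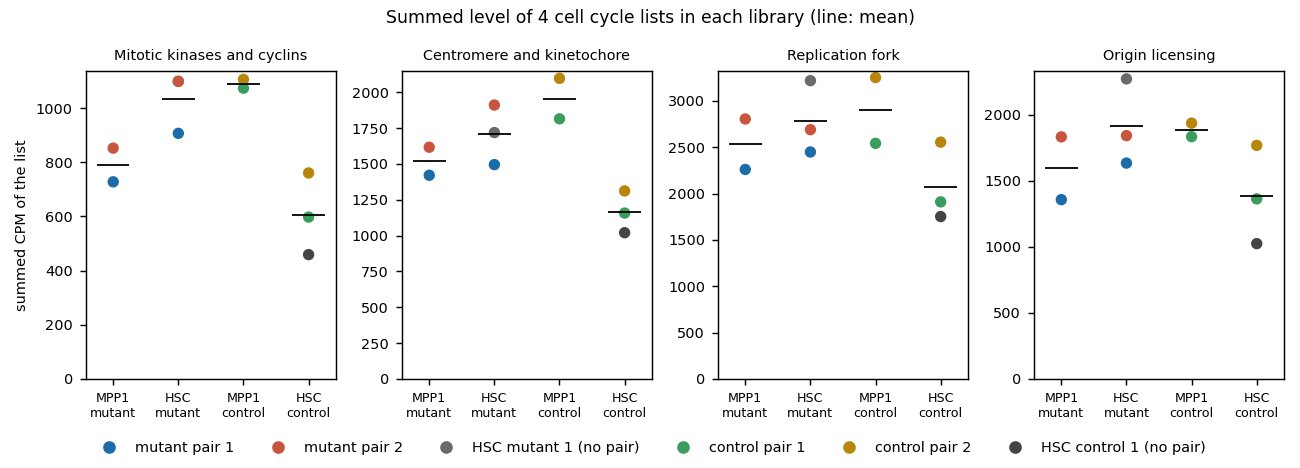
Summed CPM of 4 cell cycle lists in each of 10 libraries, 1 point per library coloured by pair, with a line at the group mean; the vertical axes start at 0. For mitotic kinases and cyclins both MPP1 mutants lie below all 3 HSC mutants (2 of which coincide at 1099 CPM), and both MPP1 controls lie above all 3 HSC controls.

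Cdk1, the kinase that triggers mitosis, had 81.5 and 99.4 CPM in MPP1 mutants, against 130, 137 and 98.6 CPM in HSC mutants. It had 127.2 and 142 CPM in MPP1 controls, against 59.9, 60.8 and 76.3 CPM in HSC controls. The mutant groups overlapped slightly, with a log2 difference of -0.33 ± 0.24 (adjusted p = 0.815), while the control difference of 1.07 passed (adjusted p = 0.0284). The interaction was -1.40 ± 0.33 (adjusted p = 0.44). Ccnb2, a mitotic cyclin that binds Cdk1, had 40.7 and 48.7 CPM in MPP1 mutants, against 88.2, 66.1 and 70.2 CPM in HSC mutants, and 74.5 and 71.0 CPM in MPP1 controls, against 36.6, 43.3 and 46.4 CPM in HSC controls. Both pairs of groups were fully separated, in opposite order, with -0.63 in mutants and an interaction of -1.42.

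Other mitotic genes had negative values that did not pass, and they are named here after their values were seen. Pbk, a mitotic kinase, had 16.3 and 31.7 CPM in MPP1 mutants, against 37.3, 67.9 and 60.1 CPM in HSC mutants (-1.25 ± 0.39, adjusted p = 0.395). Aurkb, the kinase that corrects wrong attachments of chromosomes to the spindle, had 10.9 and 21.2 CPM in MPP1 mutants, against 38.2, 33.9 and 36.7 CPM in HSC mutants (-1.10, adjusted p = 0.565), with an interaction of -2.17. Its partner Incenp gave -0.77. Foxm1, the transcription factor of the G2/M genes, gave -1.10 and the kinetochore gene Ska1 -1.71, each on few counts. Prc1, which bundles the microtubules of the dividing spindle, was the one cell cycle gene higher at an unadjusted p under 0.05, at 109 and 76.2 CPM in MPP1 mutants, against 39.1, 73.1 and 50.1 CPM in HSC mutants (0.56, unadjusted p = 0.0492).

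The proliferation markers Mki67 and Top2a had overlapping mutant groups. Mki67 had 193 and 355 CPM in MPP1 mutants, against 191, 425 and 202 CPM in HSC mutants (-0.24). Top2a, the topoisomerase that untangles chromosomes, had 383 and 459 CPM in MPP1 mutants, against 220, 512 and 483 CPM in HSC mutants (-0.11). The signs of both turn positive in the models with no ID number or batch term. Ccna2 gave -0.24 and Ccnb1 -0.57, neither of which passed. The control calls among mitotic genes were Cep55 at 2.04, Arhgef39 at 1.56, Nusap1 at 1.34, Ckap2 at 1.32 and Ube2c at 1.07 beside Cdk1, and their mutant values were 0.40, -0.18, 0.50, 0.04 and -0.03.

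The other mitosis lists had smaller contrasts. Centromere and kinetochore genes had medians of -0.10 in mutants and 0.70 in controls with an interaction median of -0.89. Spindle and kinesin genes had -0.06 in mutants and 0.69 in controls, chromosome condensation -0.22 and 0.42, cytokinesis -0.01 and 0.59, and mitotic exit with the anaphase-promoting complex 0.08 and 0.14. Kif15, a spindle motor, had 84.2 and 44.4 CPM in MPP1 mutants, against 43.7, 82.7 and 58.5 CPM in HSC mutants, whereas it had 67.7 and 101 CPM in MPP1 controls, against 16.6, 34.1 and 40.9 CPM in HSC controls. Its mutant groups overlapped, and its interaction was -1.43.

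Upstream sequence is shown for 3 mitosis genes. Such genes are often controlled through a CCAAT box and a cell cycle homology region (CHR) near the start. The 3 had the smallest p in the interaction among mitosis genes whose RefSeq start lay within 50 bases of that in GENCODE. Mitosis genes that did not meet this were passed over, also where their p was smaller. Letters are the 120 bases before the outermost annotated start, from RefSeq (GRCm38.p6), 5′ to 3′ on the gene's strand. Capitals mark the box CCAAT and the CHR, which was searched as TTTGAA and as TTCGAA, each motif on both strands. The stretches are chr10:69352939-69353058 on the minus strand for Cdk1, chr9:70421555-70421674 on the minus strand for Ccnb2 and chr9:122950926-122951045 on the plus strand for Kif15.
Cdk1: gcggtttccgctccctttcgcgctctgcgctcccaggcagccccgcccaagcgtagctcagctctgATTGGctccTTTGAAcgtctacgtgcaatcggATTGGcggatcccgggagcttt
Ccnb2: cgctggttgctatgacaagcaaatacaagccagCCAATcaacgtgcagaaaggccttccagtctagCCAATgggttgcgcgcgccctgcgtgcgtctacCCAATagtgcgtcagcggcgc
Kif15: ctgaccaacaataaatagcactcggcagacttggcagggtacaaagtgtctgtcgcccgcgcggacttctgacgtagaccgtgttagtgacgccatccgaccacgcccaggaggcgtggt

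Cdk1 holds 1 CHR and 2 CCAAT boxes there, Ccnb2 holds 3 CCAAT boxes and no CHR, and Kif15 holds neither. The printed stretches end before the start, so they cannot show a motif that lies further downstream. In the 250 bases before the start, on both strands, a CHR was found in 40 of 124 genes of the mitosis lists that are in the promoter table, of 148 listed (32.3%, against 17.4% of 27025 promoters). A CCAAT box was found in 60.5% of them, against 34.5% of all promoters, and both motifs in 23.4%, against 6.2%. The E2F sites TTTCCCGC, TTTGGCGC and GGCGGGAA were found in 16.2% of 74 promoters of the S phase lists, against 2.7% of all promoters. These are descriptions of the sequence, and binding was not measured.

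The S phase lists had control medians above 0 and mutant medians near or below it. Origin licensing genes, which load the helicase onto DNA in G1, had medians of -0.22 in mutants and 0.40 in controls, with an interaction median of -0.56. Replication fork genes had -0.09 in mutants and 0.42 in controls, nucleotide synthesis genes -0.25 and 0.39, and genes of replication-coupled repair 0.01 and 0.51. Their interaction medians were -0.61, -0.54 and -0.47. None of these genes passed in the mutants.

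Rrm2, the small subunit of the enzyme that makes deoxynucleotides, had 43.5 and 36.0 CPM in MPP1 mutants, against 99.2, 65.3 and 78.5 CPM in HSC mutants. It had 82.8 and 87.8 CPM in MPP1 controls, against 41.6, 34.1 and 70.9 CPM in HSC controls. Both pairs of groups were fully separated, in opposite order, with -0.91 ± 0.32 in mutants (adjusted p = 0.504), 0.83 in controls and an interaction of -1.74 (adjusted p = 0.44). Tyms, thymidylate synthase, had 35.3 and 59.2 CPM in MPP1 mutants, against 61.9, 74.0 and 73.5 CPM in HSC mutants, with -0.51 in mutants and 1.27 in controls. Tk1, thymidine kinase, had 29.9 and 71.9 CPM in MPP1 mutants, against 77.3, 72.2 and 68.5 CPM in HSC mutants, with -0.34 in mutants and 1.37 in controls (adjusted p = 0.0429).

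2810417H13Rik, the symbol the tables use for the PCNA-binding factor Pclaf, had 103 and 167 CPM in MPP1 mutants, against 126, 164 and 155 CPM in HSC mutants. It had 141 and 293 CPM in MPP1 controls, against 41.6, 52.5 and 134 CPM in HSC controls. The mutant groups overlapped at a log2 difference of -0.16 and the control groups did not at 1.46 (adjusted p = 0.00193), and the interaction of -1.61 ± 0.35 had an adjusted p of 0.249, level with the unnamed gene model Gm38197 as the smallest of all genes. Pcna, the sliding clamp of the replication fork, gave 0.16 in mutants, and Mcm5, a subunit of the helicase, gave -0.22. Cdc45, which completes the active helicase, had 8.15 and 12.7 CPM in MPP1 mutants, against 35.5, 19.1 and 26.7 CPM in HSC mutants (-1.22, adjusted p = 0.606), and the licensing inhibitor Gmnn had 29.9 and 23.3 CPM in MPP1 mutants, against 61.0, 56.6 and 43.4 CPM in HSC mutants (-0.98, adjusted p = 0.624).

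Regulators of G1 had a median of -0.16 in mutants and 0.24 in controls over 21 tested genes. E2f2, an activating transcription factor of S phase entry, had 0 and 23.3 CPM in MPP1 mutants, against 18.2, 26.1 and 10.02 CPM in HSC mutants. It had 9.78 and 69.1 CPM in MPP1 controls, against 0, 2.76 and 8.18 CPM in HSC controls, where the log2 difference of 3.09 passed (adjusted p = 0.0105). The D cyclins, which couple growth signals to G1, gave -0.16 for Ccnd1, 0.08 for Ccnd2 and -0.46 for Ccnd3 in mutants, and their kinase partner Cdk6 gave -0.27. None passed.

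No gene that holds cells in quiescence passed in either genotype. Over 18 tested CDK inhibitors and quiescence genes the median was -0.15 in mutants, -0.11 in controls and -0.07 in the interaction. Cdkn1c, the p57 inhibitor of stem cells, had 62.5 and 52.9 CPM in MPP1 mutants, against 38.2, 47.0 and 86.9 CPM in HSC mutants (0.03). Cdkn1b, the p27 inhibitor, gave 0.18, and Cdkn1a, the p21 inhibitor, gave -0.38 on 8 counts in MPP1 and 27 in HSC.

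Genes encoded in the nucleus for the respiratory chain had small differences of 1 sign in the mutants. Of 66 tested, 58 were estimated lower in MPP1 mutants, none passed and 17 had an unadjusted p under 0.05 (25.8%, beside 3.87% of all genes). Their median was -0.36, and -0.35 in batch C alone, which leaves out HSC mutant 1 with its summed 24081 CPM. The sums were 9592 and 10086 CPM in MPP1 mutants, against 12696 and 11706 CPM in HSC mutants 2 and 3, so the populations did not overlap without that library either. In the controls the median was 0.07, and the interaction median was -0.38 with 62 of 66 negative. Ndufb6, a subunit of complex I, had 54.3 and 69.8 CPM in MPP1 mutants, against 260, 114 and 115 CPM in HSC mutants (-0.89, adjusted p = 0.393). Uqcr11, a subunit of complex III, had 62.5 and 50.8 CPM in MPP1 mutants, against 277, 124 and 95.2 CPM in HSC mutants (-0.99, adjusted p = 0.393).

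Ribosome biogenesis genes had the same sign. Of 40 tested, 35 were estimated lower in MPP1 mutants, 3 of them at an unadjusted p under 0.05 (7.5%, beside 3.87% of all genes) and none past adjustment, with a median of -0.28 in mutants and -0.02 in controls. The mutant median was -0.16 in batch C alone. Srm, spermidine synthase and a Myc target, had 70.6 and 61.3 CPM in MPP1 mutants, against 308, 133 and 110 CPM in HSC mutants (-0.91, adjusted p = 0.393). Cytosolic ribosomal proteins had a median of -0.08 over 80 genes.

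Transcripts of the mitochondrial genome ran the other way. Of 15 tested, 12 were estimated higher in MPP1 mutants, 2 passed (0.0377% of all genes were called higher) and 8 had an unadjusted p under 0.05 (53.3%, beside 3.52% of all genes), with a median of 0.48 in mutants and 0.28 in controls. Summed over the mitochondrial genome the groups overlapped, at 104712 and 67834 CPM in MPP1 mutants, against 54768, 63262 and 76785 CPM in HSC mutants. The isoleucine tRNA gene mt-Ti (MT, 3706 to 3774) had 92.4 and 82.5 CPM in MPP1 mutants, against 153, 6.09 and 5.01 CPM in HSC mutants. HSC mutant 1 was the highest of the 5, and within mutant pairs 1 and 2 MPP1 was higher by 3.70 and 3.34 on the log2 CPM scale. The log2 difference was 3.10 ± 0.44 (adjusted p = 0.000874), with 1.99 in controls (adjusted p = 0.0698). It was not called without HSC mutant 2, MPP1 mutant 1 or MPP1 mutant 2 (adjusted p = 0.0611 to 0.269; range over all alternatives 8.56e-16 to 0.954).

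The complex I gene mt-Nd5 (MT, 11742 to 13565) had 4781 and 4326 CPM in MPP1 mutants, against 3911, 2516 and 1792 CPM in HSC mutants, with no overlap (1.20 ± 0.23, adjusted p = 0.0242). Without HSC mutant 3, MPP1 mutant 1 or MPP1 mutant 2 it was not called (adjusted p = 0.269 to 0.901; range over all alternatives 0.000525 to 0.901). Its neighbour on the other strand, mt-Nd6, had 136 and 161 CPM in MPP1 mutants, against 41.9, 63.5 and 46.8 CPM in HSC mutants (1.27, adjusted p = 0.114). The strand used in counting is not given in the sources used here, so reads of these 2 genes, or of nuclear copies of mitochondrial DNA, may not be kept apart. mt-Nd1, another subunit of the same complex, had the other sign at -0.36. The satellite transcripts listed above are high in the same 2 libraries as mt-Nd5 and mt-Nd6, and their part in the result was not tested. HSC mutant 1, the library highest for mt-Ti, had 1% of its counts in satellite models.

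No other list held a gene that passed. The immediate-early and stress genes, which mark handling of cells, had a median of 0.00 over 28 genes, and Fos had 712 and 408 CPM in MPP1 mutants, against 454, 395 and 516 CPM in HSC mutants. Fosb gave 0.01. The median was 0.15 for interferon response genes, 0.21 for glycolysis, -0.05 for lymphoid priming and -0.02 for the DNA methylation machinery. Of markers of other cell types, 8 tested monocyte and macrophage genes had a median of 1.74, 15 dendritic cell genes 0.31, 17 neutrophil genes 0.08, 9 B cell genes -0.14 and 5 T and NK cell genes 0.60.

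**Figure D5:**
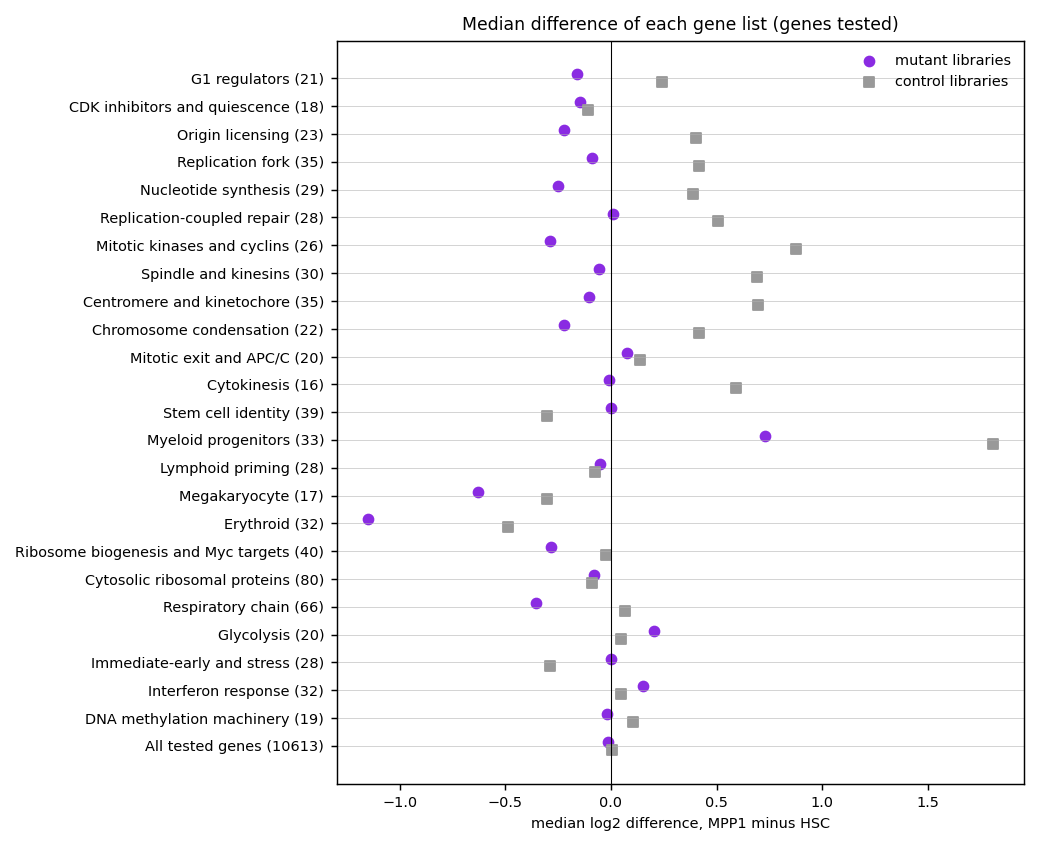
Median log2 difference, MPP1 minus HSC, of each gene list in mutant libraries (circles) and control libraries (squares), with the number of genes tested in parentheses. In the cell cycle lists other than CDK inhibitors and mitotic exit the control median lies between 0.24 and 0.88 and the mutant median between -0.29 and 0.01, while myeloid progenitor genes are positive and erythroid and megakaryocyte genes negative in both genotypes.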

How the data were processed

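Per the labels' protocols, RNA was not extracted: cells went into lysis buffer at sorting and CEL-Seq2 libraries followed. The authors deposited estimated counts per gene symbol (29717 per population): 100% of 1557 values from 1000 up and below the highest, 36909, were values that a correction for collisions of 6-base UMIs can give. The highest value is a ceiling and was reached 1 time in the 5 mutant libraries, by mt-Rnr2 in HSC mutant 2. The submitters' processing notes name the build mm10, R 3.4.0 and DESeq2, with no role given. Aligner, counter, strand setting and annotation: not given in the sources used here. DESeq2 result tables of the authors were not used. Every column of the count tables matched a sample (0 did not).

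The whole-number counts were used as deposited in edgeR 4.0.16 (R 4.3.3). All 18 libraries were fitted together with the ID number as a block and population with genotype as group, after TMM scaling and edgeR's expression filter by group (minimum count of 10), with a robust quasi-likelihood fit (6 residual degrees of freedom) and Benjamini-Hochberg adjustment over 10613 genes at a threshold of 0.05. The contrasts were MPP1 mutant minus HSC mutant, the same in controls, and the difference of both. Each SE was calculated back from the test, as the absolute log2 difference divided by the square root of the F statistic. CPM are counts scaled to the TMM library size, and log2 CPM within ID numbers used a prior count of 2. Ratios of pooled counts carry 95% intervals, which cover counting error only. Alternatives used edgeR 4.0.16 or DESeq2 1.42.0. The fit was also run on counts simulated from its own estimates. Such counts follow the model, so they do not test how it handles outlying libraries.

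Total counts ran from 354642 to 1943562 per library. Libraries of the mutant groups all differed by more than sampling noise (chi-square over degrees of freedom between 2.959 and 16.265). As a check of the pairing, deviations of libraries with the same ID number correlated over genes at 0.201 between HSC and MPP1 mutants and at 0.194 between controls. Over all pairs of populations, 9 of 10 such values were over 0.1, the lowest being 0.076. Those of 0.445, 0.448, 0.485 and 0.169 set an ID number of batch A against one of batch C. In them ID number and batch cannot be told apart. Within batch C the values ran from 0.076 to 0.292. Over autosomal genes alone, the values between HSC and MPP1 were 0.17 in mutants and 0.166 in controls. The block was part of the design as written, and the fit without it is given beside the count of calls.

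The 33 gene lists are described by counts and medians, with no set test. The members and lists were chosen with earlier results of these data known. The rule named up to 10 called genes per direction with the same sign within both ID numbers, up to 3 called genes of each list, a set of cell cycle, stem cell, myeloid and stress genes in any case, up to 5 genes of smallest p in the difference, and, since fewer than 10 passed, the 10 of smallest p. Further list members given as examples were chosen after their values were seen. Gene positions are from GENCODE (GRCm38), and upstream sequences from RefSeq (GRCm38.p6).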

Additional observations from a re-analysis of the deposited data

How the results depend on the processing

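The count of 5 called genes (4 higher and 1 lower in MPP1 mutants) moved with most choices. With no replicate block it was 0, 0 higher and 0 lower, with batch and group or with group alone. It was 10 (8 higher, 2 lower) over the 9 mutant libraries, 55 (35, 20) over the 10 HSC and MPP1 libraries, 20 (16, 4) over the 12 batch C libraries, 9 (8 higher) with DESeq2 and 29 (17, 12) with no filter. The 5 mutant libraries with population alone gave 7 higher and 0 lower, and all but the gene model Gm21738 were counted as satellite models. No gene was lower (0) with DESeq2 size factors, with a minimum count of 30 or in a fit that was not robust. Chosen after seeing the data, leaving out satellite models and mitochondrial transcripts gave 2, both higher (Hk3 and Prtn3), and 0 lower, and the 5 libraries with the block gave 120 (67, 53) on 1 residual degree of freedom, with 1 cell cycle gene, Pbk. Leaving out 1 library at a time gave 0 to 21 genes, 0 to 16 higher and 0 to 5 lower. Hk3, Prtn3 and Gata1 kept their direction in all 19 alternatives, and mt-Ti and mt-Nd5 in the 18 that retain mitochondrial transcripts. The cause of these changes was not tested. The control count of 25 was 3 with no block, 49 over 10 libraries and 7 to 39 without 1 library at a time, and the interaction count of 0 was 2 over 10 libraries (Gm11168, S100a8), 1 in batch C (S100a8) and 0 to 1 without 1 library at a time. Some log2 differences that were not called changed sign. With no replicate block (group alone, then 5 libraries) Mki67 gave 0.0084 and 0.015, Top2a 0.058 and 0.067, Pcna -0.17 and -0.16, Ccnd1 0.11 and 0.11, and Dnmt1 0.10 and 0.11. Over 10 libraries, batch C and the 5 libraries with the block, Cdkn1c gave -0.14, -0.14 and -0.15, and Cd48 0.18, 0.14 and 0.17. Ccnd2 gave -0.0014 in batch C and -0.0053 over the 5 libraries with the block. With no filter Cdkn1c gave -0.012, Slamf1 -0.021 and Fosb -0.027, and with DESeq2 Cd48 gave 0.046 and Fosb -0.015. Without 1 library at a time the ranges that cross 0 were -0.38 to 0.12 for Top2a, -0.81 to 0.19 for Mcm5, -1.09 to 0.056 for Tk1, -0.34 to 0.090 for Ccnd1, -0.057 to 0.25 for Ccnd2, -6.36 to 0.41 for Cdkn1a, -0.32 to 0.48 for Cdkn1c, -0.064 to 0.67 for Mecom, -0.037 to 0.61 for Procr, -0.33 to 1.10 for Flt3, -0.37 to 0.33 for Cd48, -0.30 to 0.33 for Slamf1, -0.21 to 0.36 for Fos, -0.31 to 0.28 for Fosb, -0.28 to 0.10 for Dnmt1 and -0.57 to 0.13 for 2810417H13Rik.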
